A study of Mus musculus with 8 samples.

Results

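The 10 genes described here are the core of the circadian clock and its best known output genes in mouse liver: Arntl (also written Bmal1), Clock, Npas2, Per1, Per2, Per3, Cry1, Cry2, Dbp and Nr1d1. The rule takes them by name and uses none of their values. All 10 were found by Ensembl identifier among the 14317 mouse genes of the deposited table. The libraries were RNA-seq of whole liver from female mice fed a Western diet (WD), 4 given empty vehicle pellets (Con-Veh) and 4 given 10 mm pellets of dihydrotestosterone (DHT), an androgen that is not converted to estrogen (Con-DHT). Treatment and diet lasted 8.5 weeks from implantation at 7 weeks of age. The labels give the genotype of both groups as WT, and no strain is named. The methods describe housing in alternating light and dark. They give an overnight fast before collection in a paragraph on a separate WD cohort, and whether it covered these mice is not stated outright. The time of day at which each mouse was killed is not given in the sources used here, so the clock time behind a library is unknown. Reads on genes ran from 13123962 to 17815944 per library. Of the cell type markers checked, those of hepatocytes (Alb, Apoa1, Ttr and Cps1) were by far the most abundant in every library.

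The clock is a loop of transcription and repression that runs in nearly every cell. ARNTL pairs with CLOCK or NPAS2 and binds E-box sequences, driving the Per and Cry genes, Dbp and Nr1d1. PER and CRY proteins then hold that pair back, while REV-ERB alpha, the product of Nr1d1, represses Arntl and Npas2 through ROR elements (ROREs), and DBP acts on D-boxes such as those of Per3. In mouse liver, Arntl and Npas2 RNA peak around the end of the night, Nr1d1 and Dbp during the day, Per RNA around dusk and Cry1 later in the night, so that Arntl is high when Dbp and Nr1d1 are low. Fasting and feeding, body temperature and glucocorticoid can shift liver clocks.

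The start sites of these genes carry the elements of that loop in part. RefSeq promoter windows (GRCm38.p6), from 250 bases before to 50 bases after each start site, were matched for 9 of the 10 genes, with 13 windows in all. The motifs searched were the E-box CACGTG, the D-box TTATGTAA (TTACATAA on the other strand) or TTACGTAA, the cAMP response element TGACGTCA, and the RORE by its name alone, each on both strands. A set of 4 windows is shown because each holds an element through which one member is known to be driven or repressed, with the matched element in capitals. The first is the later of both Arntl windows, with a RORE that starts 27 bases into the transcript, at chr7:113207261-113207560 on the plus strand. The second is the earlier of both Per1 windows, with an E-box that starts at position -166 from the start site, at chr11:69098699-69098998 on the plus strand. The Per3 window holds D-boxes starting at -205 and -158, at chr4:151044616-151044915 on the minus strand. The Cry1 window holds an E-box starting at -60, at chr10:85185005-85185304 on the minus strand.
Arntl: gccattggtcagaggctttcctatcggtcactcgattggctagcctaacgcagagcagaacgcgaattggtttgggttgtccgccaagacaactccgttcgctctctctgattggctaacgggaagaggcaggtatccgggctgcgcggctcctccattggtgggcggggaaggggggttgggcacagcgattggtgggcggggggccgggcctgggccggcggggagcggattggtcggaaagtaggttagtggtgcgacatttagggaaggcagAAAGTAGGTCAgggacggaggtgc
Per1: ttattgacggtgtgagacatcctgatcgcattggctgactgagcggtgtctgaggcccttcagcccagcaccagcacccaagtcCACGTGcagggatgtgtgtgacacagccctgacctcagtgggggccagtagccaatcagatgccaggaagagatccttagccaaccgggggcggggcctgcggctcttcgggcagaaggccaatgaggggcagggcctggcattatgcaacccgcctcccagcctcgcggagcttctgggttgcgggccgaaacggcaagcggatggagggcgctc
Per3: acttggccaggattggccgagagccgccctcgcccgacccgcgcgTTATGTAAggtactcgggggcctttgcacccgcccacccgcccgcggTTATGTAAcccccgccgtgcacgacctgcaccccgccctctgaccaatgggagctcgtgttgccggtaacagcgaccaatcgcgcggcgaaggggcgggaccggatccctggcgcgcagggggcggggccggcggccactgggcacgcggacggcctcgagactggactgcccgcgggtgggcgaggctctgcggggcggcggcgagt
Cry1: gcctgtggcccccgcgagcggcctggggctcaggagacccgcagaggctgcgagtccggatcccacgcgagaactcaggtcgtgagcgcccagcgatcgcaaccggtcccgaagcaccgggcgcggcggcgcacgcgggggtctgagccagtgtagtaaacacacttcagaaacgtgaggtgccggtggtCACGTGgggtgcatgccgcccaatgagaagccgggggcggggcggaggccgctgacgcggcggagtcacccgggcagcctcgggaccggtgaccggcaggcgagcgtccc
Among all 32851 windows, 7.15% held the E-box, 1.06% the D-box, 0.384% the RORE and 1.79% the cAMP response element. Of the members' 13 windows, 2 held the E-box, 1 the D-box, 1 the RORE and 0 the cAMP response element. These matches describe the letters of short windows and say nothing of binding in these livers.

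Across the members, Cry1 fell in Con-DHT livers, and no other member passed the test. Con-Veh livers differed so widely from one another in Arntl, Npas2, Per3 and Dbp that their Con-Veh and Con-DHT ranges overlapped. Values are read counts divided by a size factor per library by the authors, called normalised read counts here. The groups were compared with limma on log2(value + 1), and p-values were adjusted by Benjamini-Hochberg over all 14312 genes with a mean of at least 10. Log2 fold changes are Con-DHT minus Con-Veh, and SD values have n = 4. Of the 10 members, 1 passed an adjusted p of 0.05, against 7.21% of all genes tested (1032 genes). By direction, 0 members were higher, against 4.6% of all genes, and 1 was lower, against 2.61%. An unadjusted p under 0.05 was found for 3 members (Cry1, Dbp and Nr1d1) and for 23.2% of all genes. The groups did not overlap in 1 member, against 15.1% of all genes. These shares lie close to the background and do not set the clock genes apart by count. The median log2 fold change of the members was 0.06 and that of all genes was -0.0081. Members that run opposite to one another offset each other in that median, from -1.12 for Npas2 to 1.83 for Dbp. It therefore does not describe a shift between them.

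**Figure D1:**
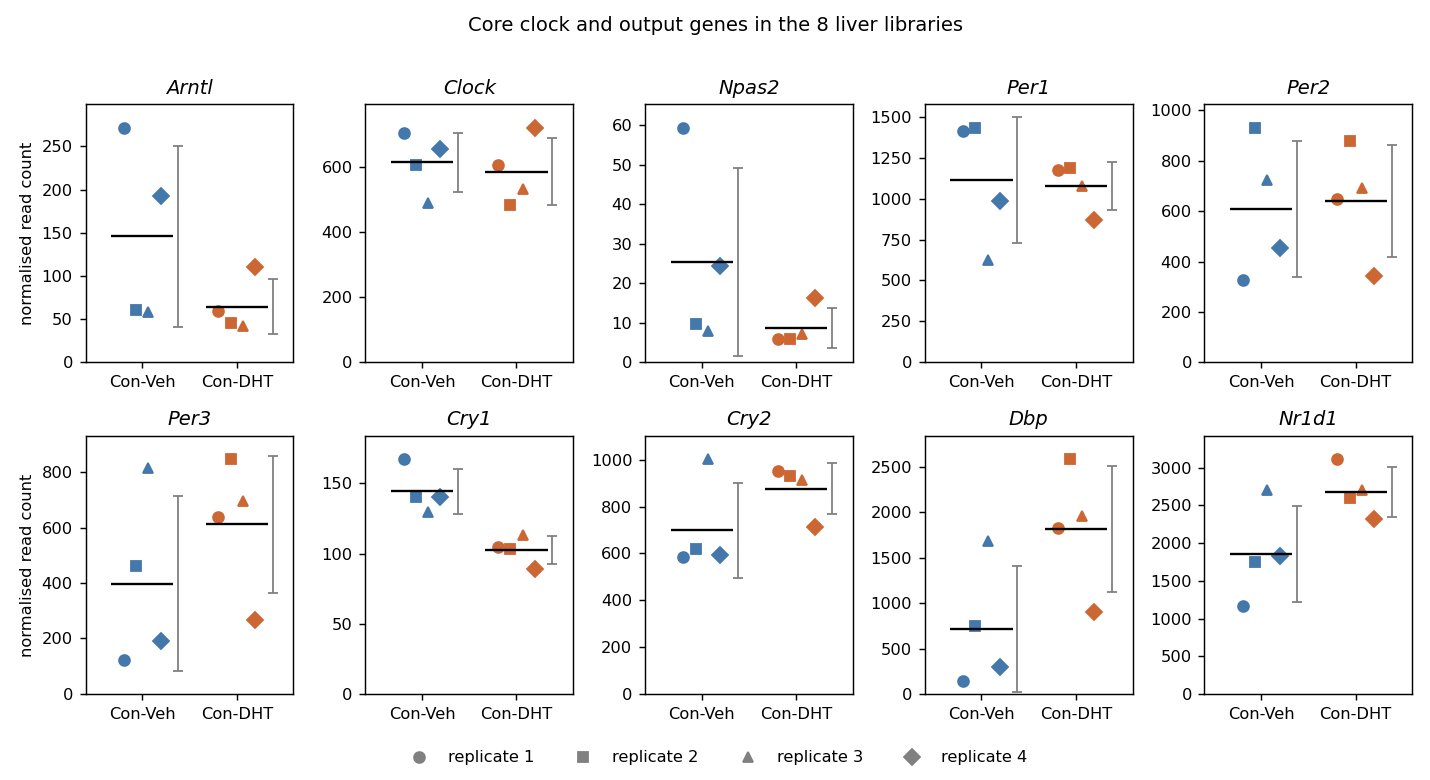
Normalised read counts of the 10 members in each library, one panel per gene, with Con-Veh in blue and Con-DHT in orange. Marker shapes give the replicate number, black lines the group means and grey bars the mean ± SD (n = 4). The groups are apart only in Cry1, where Con-Veh livers sit between 129.8 and 167 and Con-DHT livers between 89.1 and 113.

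Among the activators, Arntl (ENSMUSG00000055116), the partner that the loop cannot run without, read 272, 60.8, 58.9 and 193 in Con-Veh livers 1 to 4 and 59.8, 45.5, 41.8 and 111 in Con-DHT livers 1 to 4. Con-Veh 1 and 4 stood high, Con-DHT 4 stood between, and the other 5 livers from both groups lay close together. The means were 146 ± 105 in Con-Veh and 64.5 ± 31.9 in Con-DHT, which puts the log2 fold change at -0.96 (SE 0.51, 95% limits -2.09 to 0.16, limma adjusted p = 0.288). Without Con-Veh 1 it was -0.56. Npas2 (ENSMUSG00000026077), which can stand in for CLOCK, read 59.4, 9.65, 7.99 and 24.4 in Con-Veh and 5.89, 5.81, 7.14 and 16.3 in Con-DHT. The same 3 livers stood high as for Arntl, in the same order. Its log2 fold change was -1.12 (SE 0.59, 95% limits -2.43 to 0.20, limma adjusted p = 0.292), and -0.58 without Con-Veh 1. Npas2 was the weakest of the members, and 3 reads were worth 2.61 to 3.30 on this scale, so its low values rest on few reads. Clock (ENSMUSG00000029238), the other partner of ARNTL, whose RNA cycles little in liver, read 704, 607, 489 and 654 in Con-Veh and 605, 484, 531 and 719.6 in Con-DHT. The groups overlapped almost fully. Its log2 fold change was -0.07 (SE 0.14, 95% limits -0.39 to 0.24, limma adjusted p = 0.811).

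Among the repressors, Cry1 (ENSMUSG00000020038), the cryptochrome whose RNA peaks late in the cycle, read 167, 139.9, 129.8 and 140.1 in Con-Veh and 105, 104, 113 and 89.1 in Con-DHT. Every Con-DHT liver lay below every Con-Veh liver. The means were 144 ± 16.0 and 103 ± 10.0, a log2 fold change of -0.48 (SE 0.12, 95% limits -0.76 to -0.21, limma adjusted p = 0.0424), or 0.715-fold. Its adjusted p was 0.0477 by edgeR and 0.0210 by DESeq2 on the reads recovered from the table. The call held without Con-DHT 3 (limma adjusted p = 0.0498) and was lost when any 1 of the other livers was left out (0.0514 to 0.0993), with the log2 fold change between -0.53 and -0.41. When libraries were scaled to the added spike-in RNA, the log2 fold change of Cry1 was -0.28 (SE 0.32, limma adjusted p = 0.902). In that fit the SE came from the trend across all genes, and the median log2 fold change of all genes was 0.20.

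Cry2 (ENSMUSG00000068742), its close relative, read 585, 617, 1001 and 592 in Con-Veh and 952, 930.0, 911 and 714 in Con-DHT. Con-Veh 3 was the highest of all 8 livers, and the other 3 Con-Veh livers were the lowest. Its log2 fold change was 0.36 (SE 0.17, 95% limits -0.02 to 0.74, limma adjusted p = 0.244). The sign was opposite to that of Cry1.

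The Per genes, whose proteins join CRY in the repressing complex, showed no difference between groups that passed the test. Per1 (ENSMUSG00000020893), also an immediate target of glucocorticoid, read 1412, 1431, 625 and 986 in Con-Veh and 1175, 1184, 1076 and 869 in Con-DHT. All Con-DHT livers lay within the Con-Veh range. The means were 1113 ± 385 and 1076 ± 147, a log2 fold change of 0.02 (SE 0.24, 95% limits -0.51 to 0.54, limma adjusted p = 0.979). Per2 (ENSMUSG00000055866), which also answers to feeding and temperature, read 328, 930.4, 722 and 454 in Con-Veh and 648, 879.7, 691 and 344 in Con-DHT. The lowest 2 livers, Con-Veh 1 and Con-DHT 4, came from different groups. Its log2 fold change was 0.11 (SE 0.35, 95% limits -0.66 to 0.88, limma adjusted p = 0.887). Per3 (ENSMUSG00000028957), the Per gene with D-boxes in the window shown above, read 122, 460.4, 816 and 192 in Con-Veh and 638, 846, 696 and 266 in Con-DHT. Con-Veh 1, Con-Veh 4 and Con-DHT 4, the livers highest in Arntl, were the lowest in Per3. Its log2 fold change was 0.87 (SE 0.55, 95% limits -0.36 to 2.10, limma adjusted p = 0.386). It was 0.43 without Con-Veh 1 and 1.34 without Con-Veh 3.

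Dbp and Nr1d1 were both higher on average in Con-DHT without passing the test. Dbp (ENSMUSG00000059824), a transcription factor that carries the rhythm to genes of liver metabolism, read 139.6, 743, 1681 and 298 in Con-Veh and 1828, 2583, 1965 and 903 in Con-DHT. Con-DHT 4 lay below Con-Veh 3, and the other 3 Con-DHT livers were the highest of all. The means were 715 ± 693 and 1819.7 ± 694, a log2 fold change of 1.83 (SE 0.65, 95% limits 0.39 to 3.27, limma adjusted p = 0.123, unadjusted p = 0.0178). Nr1d1 (ENSMUSG00000020889), which encodes the repressor of Arntl, read 1163, 1746, 2700.3 and 1827 in Con-Veh and 3111, 2593, 2708 and 2314 in Con-DHT. Only Con-Veh 3 reached the Con-DHT range. The means were 1859 ± 634 and 2681 ± 331, a log2 fold change of 0.58 (SE 0.21, 95% limits 0.12 to 1.05, limma adjusted p = 0.127, unadjusted p = 0.0190).

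For Dbp, Nr1d1 and Cry2, the outcome of the test depended on Con-Veh 3. Without that liver, the log2 fold change was 2.43 for Dbp (limma adjusted p = 0.0276), 0.78 for Nr1d1 (0.0251) and 0.54 for Cry2 (0.0217). Leaving out Con-Veh 1 instead gave 1.24 for Dbp (0.219), 0.38 for Nr1d1 (0.210) and 0.28 for Cry2 (0.416). With the spike-in scaling, which moved the median log2 fold change of all genes to 0.20, Dbp stood at 2.04 (adjusted p = 1.1e-09) and Per3 at 1.08 (adjusted p = 0.00997). In that fit, limma drew the spread of every gene from the trend across all genes, and the SE of Dbp was 0.30.

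Counts of Dbp and Nr1d1 may be affected by neighbours on the opposite strand. By the GENCODE annotation, 18.0% of the exonic length of Dbp overlaps Sphk2 and 8.55% of that of Nr1d1 overlaps Thra, and whether strand was used in counting is not given in the sources used here. Thra, a thyroid hormone receptor gene, rose from a mean of 350.4 to one of 521 (log2 fold change 0.57, SE 0.10, limma adjusted p = 0.0099), with every Con-DHT liver above every Con-Veh liver. Sphk2, a sphingosine kinase gene, differed by -0.11 (limma adjusted p = 0.761). Whether the overlap with Thra added reads to the Nr1d1 values, removed reads from them or did neither was not tested.

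**Figure D2:**
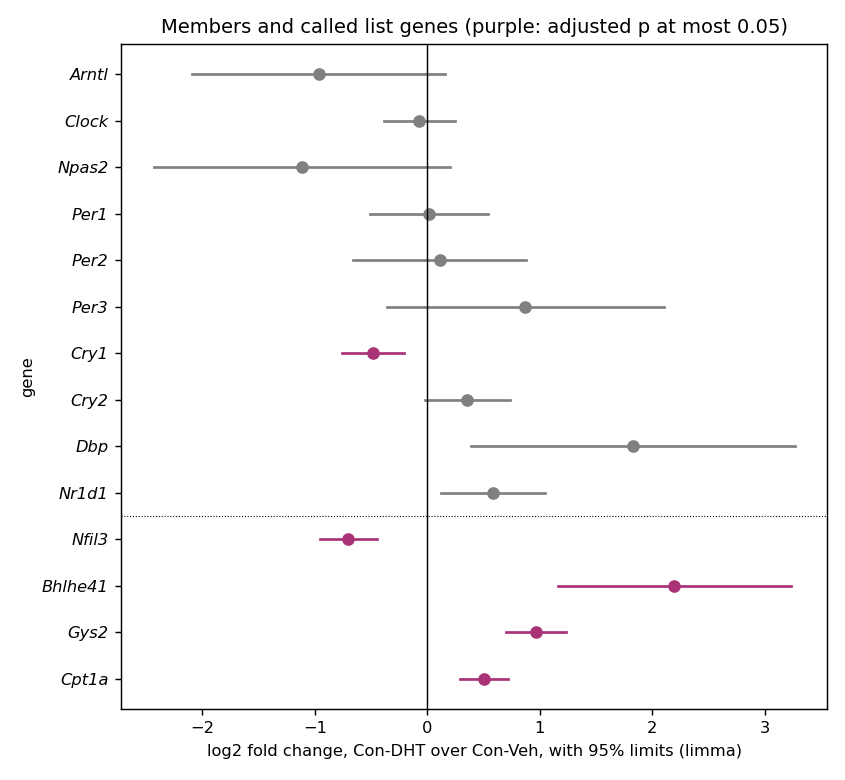
Log2 fold changes (Con-DHT over Con-Veh, x axis) with 95% limits from limma, for the 10 members above the dotted line and, below it, for the 4 genes of the other lists that passed the test. Purple marks an adjusted p of at most 0.05: among the members Cry1 alone, at -0.48, while Dbp at 1.83 has limits from 0.39 to 3.27.

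Per kilobase of exonic sequence, the scale on which genes can be set side by side, Nr1d1 was the most abundant member in both groups. Its mean was 604 normalised reads per kilobase in Con-Veh and 871 in Con-DHT. Dbp followed at 239 and 608, and Per1 at 198 and 191. Cry2 (111 and 139) and Per2 (104 and 109) came next. Clock (44.7 and 42.6), Cry1 (43.2 and 30.8) and Per3 (41.4 and 63.6) lay close together in Con-Veh and apart in Con-DHT. Arntl at 19.4 and 8.58 and Npas2 at 5.29 and 1.83 were the lowest.

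Read by library, the livers did not fall into 2 sets by treatment. The Con-Veh livers were spread widely from Arntl-high to Dbp-high, and 3 of the 4 Con-DHT livers sat together at the Dbp-high end. On the log2 scale, Arntl minus Dbp was 0.95, -3.59, -4.81 and -0.62 in Con-Veh 1 to 4 and -4.91, -5.80, -5.52 and -3.01 in Con-DHT 1 to 4. Con-Veh 1 was the only liver with more Arntl than Dbp reads. In linear terms, Dbp was 0.514 times Arntl in Con-Veh 1, 1.54 times in Con-Veh 4, 28.5 times in Con-Veh 3 and 56.8 times in Con-DHT 2. A ratio of genes within a library does not depend on the scaling of that library. The group means of Arntl minus Dbp were -2.02 ± 2.65 and -4.81 ± 1.25, and the groups overlapped. Their difference, -2.79, was -1.80 without Con-Veh 1.

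**Figure D3:**
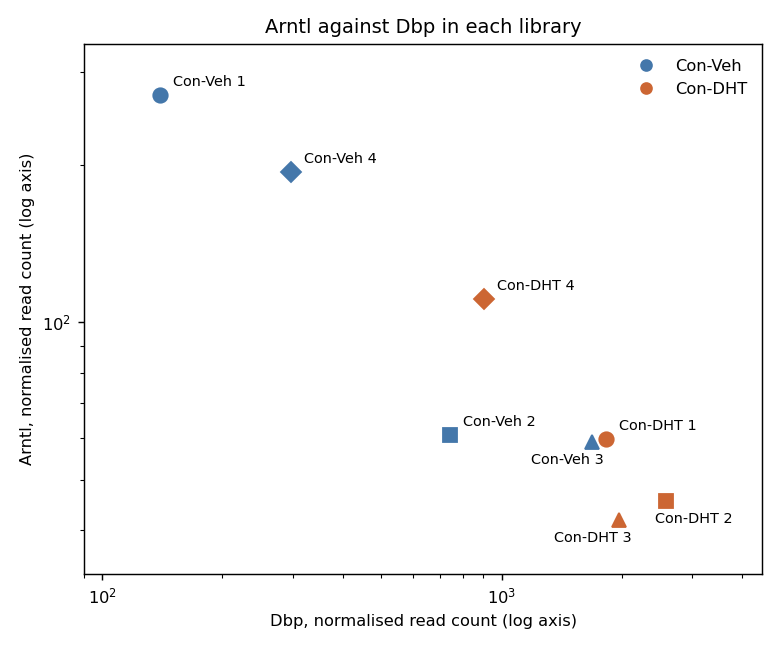
Arntl (y axis) against Dbp (x axis) in the 8 livers, as normalised read counts on log axes, with Con-Veh in blue and Con-DHT in orange. The points run from Con-Veh 1, with Arntl at 272 and Dbp at 139.6, to Con-DHT 2, with 45.5 and 2583, and Con-Veh 3 lies beside Con-DHT 1.

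The mean log2 level of the morning genes (Arntl, Clock and Npas2) minus that of the day and dusk genes (Dbp, Nr1d1, Per1, Per2 and Per3) gave a like order. This arm difference was -0.80, -3.70, -4.11 and -1.88 in Con-Veh and -4.28, -4.74, -4.43 and -2.65 in Con-DHT. From the highest, the livers ranked Con-Veh 1, Con-Veh 4, Con-DHT 4, Con-Veh 2, Con-Veh 3, Con-DHT 1, Con-DHT 3 and Con-DHT 2. The Con-Veh livers spanned 3.32 log2 units and the Con-DHT livers 2.09, while the group means, -2.62 ± 1.56 and -4.02 ± 0.94, differed by -1.40 (Con-DHT minus Con-Veh), or by -0.79 without Con-Veh 1. Arntl minus Nr1d1 behaved alike, from -5.50 to -2.09 in Con-Veh and from -5.98 to -4.37 in Con-DHT. The arm difference and Arntl minus Nr1d1 share Arntl with Arntl minus Dbp, and the arm difference shares Dbp too. Part of the likeness is therefore built in. The other 2 ratios computed, which hold neither Arntl nor Dbp, did not repeat the order. Per1 minus Cry1 ran from 2.26 to 3.35 in Con-Veh and from 3.24 to 3.50 in Con-DHT, and Per2 minus Nr1d1 from -2.01 to -0.91 and from -2.75 to -1.56.

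The distance between livers was taken as the root mean square log2 difference over the 10 members. Con-DHT 1, 2 and 3 formed the tightest set, with Con-DHT 1 and 3 at 0.214 and Con-DHT 2 and 3 at 0.222. The liver nearest to Con-Veh 3 was Con-DHT 3, at 0.323, and the liver nearest to Con-Veh 2 was Con-DHT 1, at 0.625. Con-DHT 4 lay nearest to Con-Veh 4, at 0.673. Con-Veh 1 and Con-Veh 4 were each other's nearest, at 0.663. Over the 16 pairs between groups the median distance was 0.804, between the median of 1.14 over the 6 Con-Veh pairs and that of 0.560 over the 6 Con-DHT pairs. For 3 of the 8 livers, then, the nearest liver in clock gene expression was from the other treatment.

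**Figure D4:**
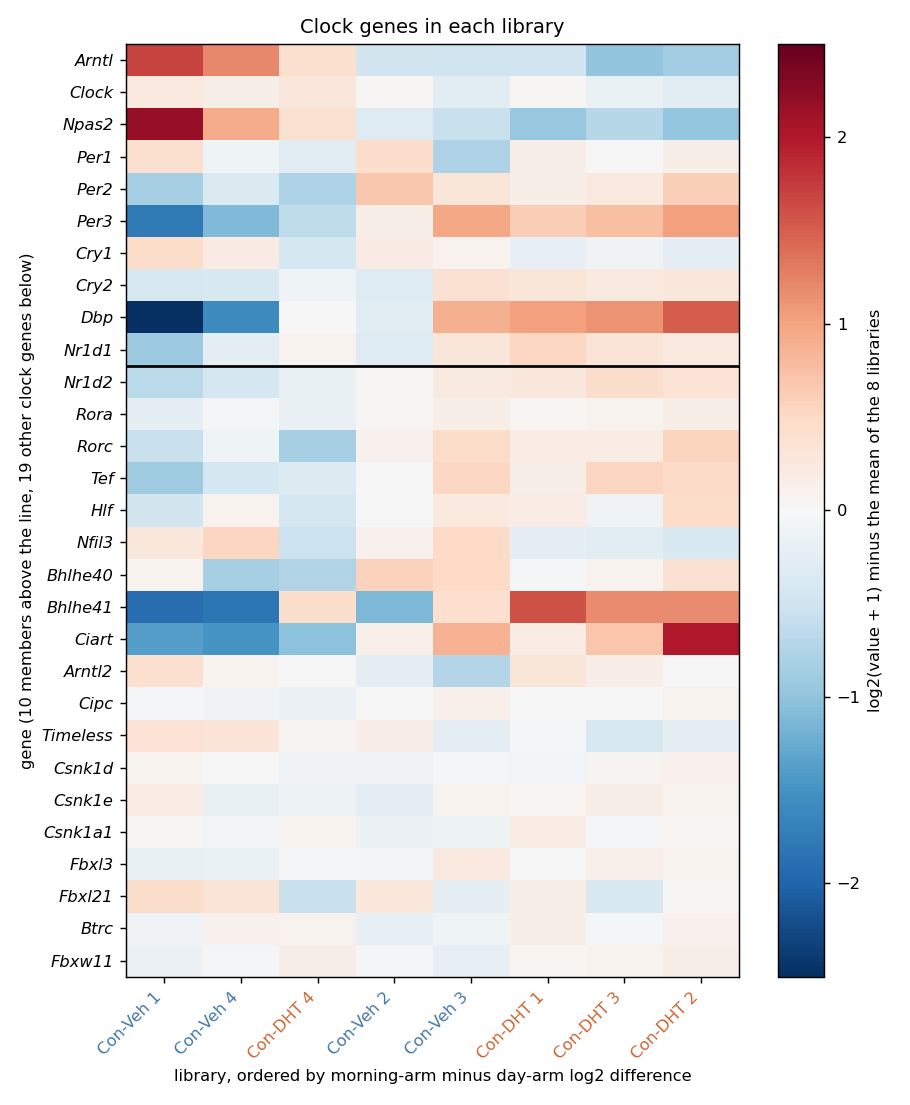
Log2(value + 1) of each gene minus its mean over the 8 livers (colour), for the 10 members above the line and 19 other clock genes below it, with livers in order of the arm difference from Con-Veh 1 (-0.80) to Con-DHT 2 (-4.74). Arntl and Npas2 fade from red to blue along that order while Dbp, Per3, Bhlhe41 and Ciart go the other way, and the casein kinase genes stay pale.

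The members differed in how far the livers lay apart. The highest liver exceeded the lowest 18.5-fold for Dbp, 10.2-fold for Npas2, 6.93-fold for Per3 and 6.49-fold for Arntl, and only 1.49-fold for Clock. Within groups, the SD of log2 values was 1.19 for Dbp, 1.01 for Per3, 1.00 for Npas2 and 0.91 for Arntl, against a median of 0.205 over all genes tested. These put Dbp at the 99.3rd percentile of all genes and Arntl at the 98.1st. Per2 (0.63) lay above the 90th percentile of 0.537 as well, while Per1 (0.42), Nr1d1 (0.37), Cry2 (0.30) and Clock (0.24) lay below it. Cry1, at 0.15, was the only member below the median, and also the only one that passed the test. The limits above follow from that spread: for Dbp, values from a 1.31-fold to a 9.66-fold difference lay inside the 95% limits, and for Arntl from 0.235-fold to above 1-fold.

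**Figure D5:**
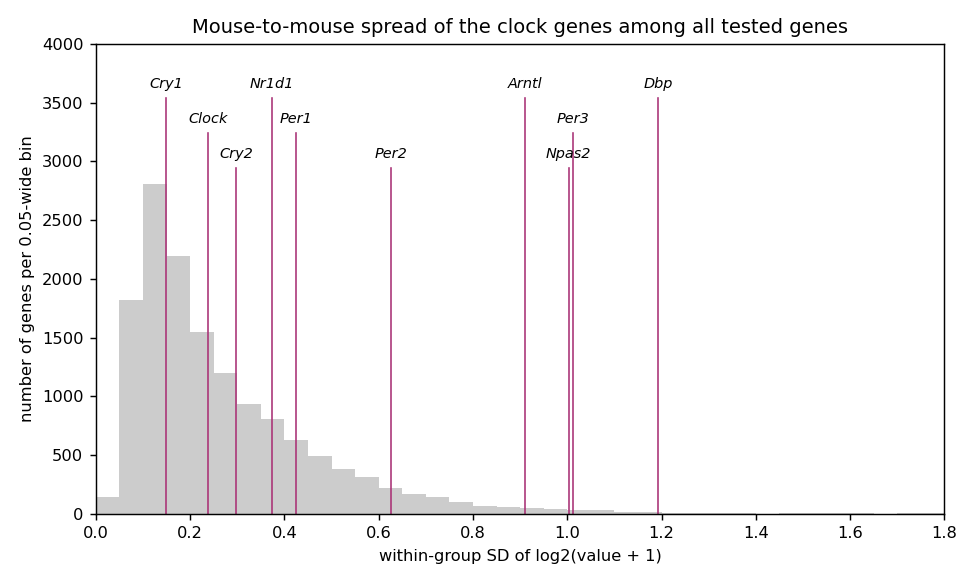
Number of genes (y axis) by within-group SD of log2(value + 1) (x axis, bins of 0.05) over 14312 tested genes, of which 42 lie beyond the axis limit of 1.8. Purple lines mark the members, from Cry1 at 0.15 to Dbp at 1.19.

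With the group means removed, the members still moved together from liver to liver. These are descriptions over 8 libraries, in which every pair of genes shares the same library, and they carry no test. Arntl followed Npas2 (Pearson r = 0.950, Spearman rho = 0.929) and Clock (r = 0.830, rho = 0.881). It ran opposite to Per3 (r = -0.963, rho = -0.929), Dbp (r = -0.941, rho = -0.976) and Per2 (r = -0.937, rho = -0.857), and less closely to Nr1d1 (r = -0.712, rho = -0.619) and Cry2 (r = -0.703, rho = -0.738). Dbp and Per3 were nearly parallel (r = 0.985, rho = 0.976). Per1 and Cry1 stood outside this axis, with r of 0.190 and 0.197 to Arntl, and had r = 0.676 with each other (rho = 0.524). Of the 45 pairs, 10 had r above 0.8, 11 had r below -0.8 and 13 lay between -0.5 and 0.5.

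Among 14311 other genes ranked by their centred correlation with Dbp, Per3 came first. Tef, a D-box factor related to Dbp, ranked 7 (r = 0.964), and Nr1d2, the gene of REV-ERB beta, ranked 12 (r = 0.959). Nr1d2 was also the second most opposite gene to Arntl (r = -0.982), and Npas2 ranked 20 among those most like Arntl. Outside the fixed lists, the 5 genes most like Arntl were Cstf1 (r = 0.985), G3bp1 (0.984), Pxmp4 (0.983), Med26 (0.973) and Dnajc11 (0.969). The 5 most like Dbp were Map4k3 (r = 0.983), Lonp1 (0.978), Hecw2 (0.977), Ubl3 (0.970) and Usp34 (0.969). Of these 10 genes, only Usp34 passed the test between groups, with a log2 fold change of 0.54 (limma adjusted p = 0.0015). These ranks describe 8 libraries only.

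Of 20 other clock genes, 19 were in the table, and 2 of these 19 passed the test (10.5% of the list, against 7.21% of all genes tested). Nfil3, a repressor that competes with DBP for D-boxes, read 564, 509, 671 and 687 in Con-Veh and 404, 361, 393 and 327 in Con-DHT. Every Con-DHT liver was below every Con-Veh liver. It fell by 0.70 on the log2 scale (SE 0.11, limma adjusted p = 0.00544) and passed without any 1 of the 8 livers. Bhlhe41, a repressor of ARNTL-driven genes with an E-box in its own RefSeq window, read 18.7, 32.8, 97.8 and 20 in Con-Veh and 219.8, 165, 166 and 98.9 in Con-DHT. The groups were apart, although Con-Veh 3 and Con-DHT 4 nearly met. It rose 4.58-fold (95% limits 2.24 to 9.39, limma adjusted p = 0.0198), passing in 4 of the 8 fits without 1 liver, with adjusted p up to 0.0587 without Con-Veh 2, Con-Veh 4, Con-DHT 1 or Con-DHT 2. By the GENCODE annotation, 19.1% of its exonic length overlaps a transcript on the opposite strand. The median log2 fold change of the 19 genes was 0.08, with 14 above and 5 below 0.

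Of 15 genes known to carry clock output in liver, 1 passed the test (6.67%, against 7.21% of all genes). Gys2, the liver glycogen synthase, read 1862, 1819, 2343 and 1943 in Con-Veh and 4036, 4508, 3974 and 3110.0 in Con-DHT. The groups did not overlap. Gys2 rose by 0.97 on the log2 scale (SE 0.12, limma adjusted p = 0.00135) and passed without any 1 liver. The median of that list was 0.01. Genes that answer to the cues which can set liver clocks were read in the same way. Of 13 genes that respond to body temperature or glucocorticoid, 0 passed by limma and by edgeR, against 7.21% and 7.15% of all genes. By DESeq2, 2 passed, against 11% of all genes, and 6 had an unadjusted limma p under 0.05, against 23.2%. Their median log2 fold change was -0.45, and 12 of the 13 lay below 0. The smallest p-values in that list belonged to Hspa8, a constitutive heat shock protein gene, at -0.51 (limma adjusted p = 0.0671), and to Sgk1, a kinase gene induced by glucocorticoid, at -0.51 (limma adjusted p = 0.0768). Of 15 fasting and feeding genes, 1 passed (6.67%, against 7.21% of all genes). Cpt1a, the gate of mitochondrial fatty acid oxidation, rose from 11059 ± 1067 to 15654 ± 937 (log2 fold change 0.50, SE 0.10, limma adjusted p = 0.0119). The study picked Cpt1a for quantitative PCR among genes that had changed in its own RNA-seq at an adjusted p under 0.05. By that PCR, in livers of mice on this diet, it reported no change of Cpt1a with DHT. The median of the fasting and feeding list was 0.02. The part of any of these cues in the clock gene values was not tested.

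Bulk liver RNA does not separate fewer cells of a type from less RNA per cell. Of the Kupffer cell markers (Clec4f, Adgre1, Cd68 and Vsig4), 4 of 4 were in the table. Their sum was 2888 to 3473 in Con-Veh and 2164 to 2783 in Con-DHT. Of the 4 genes, 3 were called lower, against 2.61% of all genes, and Adgre1, at -0.42, was not (limma adjusted p = 0.0952). Clec4f made up most of the sum, overlapped between groups and passed in 2 of the 8 fits without 1 liver. Cd68 and Vsig4 passed in all 8. The endothelial sum (Pecam1, Stab2 and Kdr) was 2224 to 2549 and 1686 to 1958. Stab2 made up most of it and was the only gene called, at -0.55 on the log2 scale (limma adjusted p = 0.0176). Pecam1 at -0.18 (0.504) and Kdr at 0.0003 (0.998) were not called. Stellate cell markers (Lrat, Dcn and Col1a1) summed to 844 to 2558 and 1207 to 1333, and cholangiocyte markers (Krt19, Krt7 and Epcam) to 68.9 to 91.4 and 69.7 to 108, with 0 called. The hepatocyte sum was 742781 to 1545340 and 778894 to 960544, with 0 called. The 2 B cell markers and 2 T cell markers were not among the genes of the table. The part of these cells in the Cry1 difference was not tested. Spike-in RNA took 1.68% of reads in Con-Veh 4 and 3.61% in Con-Veh 1, the livers that stood together in Arntl, and lay between these in the others.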

How the data were processed

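Total RNA from whole liver was made into libraries with the NEBNext Ultra II kit, with ERCC spike-in RNA added. Per the labels and the study's methods, the authors trimmed reads with Trimmomatic, aligned them with STAR, counted uniquely mapped exonic reads with featureCounts (Subread) and normalised them with DESeq2. The submitters' processing notes name GRCm39. The deposited values are a signal: read counts divided by 1 size factor per library. Whole reads were recovered from 100% of values (tolerance 0.01). The table holds 14371 features, 54 of them spike-ins, and 14287 of 14317 mouse genes matched a symbol. Symbols, exonic lengths and gene overlaps came from GENCODE M21, and promoter sequences from RefSeq (GRCm38.p6), so no gene coordinates are given beside the values.

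Groups followed the treatment labels. Con-Veh was compared with Con-DHT by limma 3.58.1 (R 4.3.3) on log2(value + 1) with an intensity trend, over genes with a mean of at least 10, with p-values adjusted by Benjamini-Hochberg and called at 0.05. Alternatives were edgeR 4.0.16 and DESeq2 1.42.0 on the recovered reads, other pseudocounts, filters and scalings, a replicate block, and each library left out. The script was tested on simulated data. Depth sets how finely low values are resolved: 3 reads were worth 2.61 to 3.30. Replicates of a group differed beyond sampling noise (chi-square per degree of freedom 19.5 to 63.1). The labels name separate samples, and p-values weigh the difference between groups against a spread between samples that is estimated in part across genes. The named genes were all members, every list gene that passed the test (or the 2 with the smallest p), and the 5 genes most correlated with Arntl and with Dbp. Members and lists were chosen with earlier results of these data known. A detail of the mouse line is not reported here.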

Additional observations from a re-analysis of the deposited data

Results flagged for a closer look

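Cry2 stood out in 1 liver of each group. In Con-Veh 3 it read 1001 normalised reads, far above the next highest Con-Veh liver at 617, a gap of 0.901 of the range of the group on the log2(value + 1) scale and 0.923 on the scale of reads. In Con-DHT 4 it read 714, far below the next lowest Con-DHT liver at 911, a gap of 0.849 of the range on the log2 scale and 0.831 on that of reads. All of these gaps exceed Dixon's 95% critical value for 4 samples, which chance passes in about 1 in 20 groups, so of the 28 groups looked at some would pass. On the scale of reads alone, Npas2 in Con-DHT 4 passed too, at 16.3 against 7.14 in the next liver (a gap of 0.873). Without Con-Veh 3 the log2 fold change of Cry2 was 0.54 (limma adjusted p = 0.0217), against 0.36 with it.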

How the results depend on the processing

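Of 189 refits of single members, 165 kept the sign and the side of the threshold, 9 lost the call, 5 gained it and 10 turned sign. The turns were in fold changes near 0. Clock was 0.13 with the spike-in scaling and -0.18 to 0.0133 with 1 liver left out (above 0 without Con-DHT 2). Per1 was -0.0441 by edgeR, -0.0504 by DESeq2 and -0.24 to 0.16 with 1 liver left out (below 0 without Con-Veh 3 or 4 or Con-DHT 1 or 2). Per2 was -0.15 without Con-Veh 1, -0.07 without Con-DHT 2 and up to 0.38 with another liver left out. The number of members called was 2 with the spike-in scaling, 0 with the replicate block and 0 to 3 with 1 liver left out. All genes called numbered 648 at a minimum mean of 50, 644 with the spike-in scaling, 1569 by DESeq2 and 638 to 897 with 1 liver left out. Other clock genes called were 1 to 2 with 1 liver left out. Clock output genes called were 2 with the spike-in scaling, the block or DESeq2. Systemic cue genes called were 2 with the spike-in scaling or DESeq2 and 0 to 1 with 1 liver left out. Fasting and feeding genes called were 2 with the block and 1 to 2 with 1 liver left out. Over all tested genes, same-numbered livers did not deviate together (r from -0.186 to -0.00596), and 0 of 8 correlated best with their own number. The replicate block lowered the SE of every member but Cry1, from 0.51 to 0.29 for Arntl and from 0.65 to 0.46 for Dbp. The limma adjusted p went from 0.288 to 0.113 for Arntl and from 0.123 to 0.0722 for Dbp. Whether the numbers pair the livers in the clock genes was not tested. With the replicate block 700 genes were called and Cry1 had an adjusted p of 0.0833. The group difference of the arm difference ran from -1.90 to -0.79 and that of Arntl minus Dbp from -3.72 to -1.80 with 1 liver left out. Npas2 has no value at a minimum mean of 50, since it lay below it. The cause of these changes was not tested. Depth limits Npas2 most, and intervals from counts would cover counting error only.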

Other observations

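3 clock genes outside the 10 members, picked here after their values were seen, varied widely from liver to liver. Ciart, a repressor whose RefSeq window holds 3 E-boxes, read 45.1, 129, 216 and 41.8 in Con-Veh and 134, 476, 191 and 57.6 in Con-DHT. Its lowest livers, Con-Veh 4, Con-Veh 1 and Con-DHT 4, were those highest in Arntl. Tef read 1614, 2958, 4305 and 2220.2 in Con-Veh and 3321, 4166, 4356 and 2375 in Con-DHT, with the same 3 livers lowest. Nr1d2 read 710.1, 1151, 1324 and 829 in Con-Veh and 1356, 1437, 1531 and 998 in Con-DHT, again with those 3 lowest. The log2 fold changes were 0.93 for Ciart, 0.41 for Tef and 0.43 for Nr1d2, and none of the 3 passed the test (limma adjusted p = 0.444, 0.425 and 0.225).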
